A study of Mus musculus with 2 samples.

Results

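The Notch genes described here are 4 receptors (Notch1, Notch2, Notch3 and Notch4), 4 membrane-bound ligands (Dll1, Dll4, Jag1 and Jag2) and 2 targets (Hey1 and Heyl), 10 of the 43346 annotated genes quantified. They were found by gene symbol. RNA came from subcutaneous adipose tissue of C57BL/6J mice, adults aged 8 weeks and littermates labelled as of both sexes. It was sequenced in 2 libraries labelled biological replicates 1 and 2. There was no treatment, mutant or second tissue, and both biosamples stand under 1 donor record, so the spread between the libraries is that of 2 samples of 1 group. Polyadenylated, ribosomal RNA-depleted molecules were read in stranded, paired form.

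Notch receptors are single-pass membrane proteins that are switched on by ligands on a neighbouring cell. Binding exposes the receptor to an ADAM protease and then to gamma-secretase, and the released intracellular part enters the nucleus, binds the DNA-binding protein RBPJ and switches on genes of the Hes and Hey families. In blood vessels Notch1, Notch4 and Dll4 are known from the endothelium and Notch3 from smooth muscle cells and pericytes, while in fat the pathway is studied as a brake on the formation of beige adipocytes.

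The deposited tables held 54752739 estimated counts in replicate 1 and 58687676 in replicate 2, of which 53601218 and 57500979 fell on annotated genes. The libraries stood apart in their cell type markers. All 8 adipocyte markers (7 under total count or spike-in scaling) were more than 2-fold lower in replicate 1 than in replicate 2, with a summed level of 19274 TPM and 41222 TPM, and the 4 most abundant were Cfd, Fabp4, Lpl and Cidec. All 10 epithelial markers were more than 2-fold higher in replicate 1, with sums of 1146 TPM and 14.2 TPM, led by Wfdc2, Krt19, Krt8 and Cldn3. In a bulk sample, fewer cells of a type and less RNA per cell cannot be told apart. Against the label of both sexes, 4 genes of the Y chromosome (Uty, Ddx3y, Eif2s3y and Kdm5d) summed to 6 counts in replicate 1 and 4 in replicate 2. Xist had 45378 counts in replicate 1 and 25266 in replicate 2. TPM, a transcript abundance corrected for length and library size, is the scale for comparing levels between genes. Differences between the libraries are ratios of replicate 1 over replicate 2 from estimated counts scaled by TMM, a trimmed mean of log ratios. The call of more than 2-fold apart needs an average of at least 100 scaled counts and a 95% counting interval of the ratio that is wholly beyond 2 or below 0.5. These intervals cover counting error only, and with 1 library on each side no test of replicate 1 against replicate 2 was possible.

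All 10 Notch genes had at least 1 TPM in both libraries, as did 29.4% of annotated genes (12759). The 10 were chosen with earlier results of these data known, so that share is background and not a test. By mean level the order was Notch3, Notch1, Notch4, Dll4, Notch2, Jag2, Hey1, Dll1, Jag1 and Heyl, with Notch3 at rank 3178 and Heyl at rank 8090 among the 12759 genes. Notch3 and Notch1 were the only neighbours in this order whose pairs of values did not overlap. Their means differed by 5.76 TPM, beside an SD of 5.13 TPM for Notch3. Every other pair of neighbours overlapped, so that neighbours below Notch1 were not separated by 2 libraries.

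**Figure D1:**
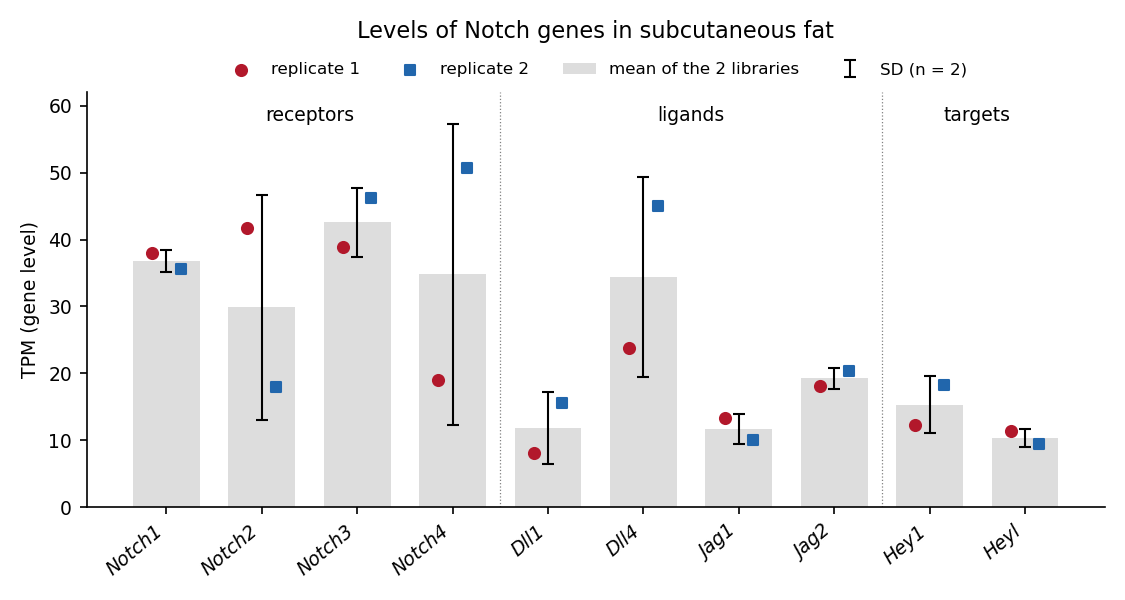
Level in TPM of the 4 receptors, 4 ligands and 2 targets, with 1 point per library, a bar at the mean and an error bar of 1 SD (n = 2). Notch4, Dll4 and Notch2 show the widest gaps between the libraries, while Notch1 is at 37.97 TPM in replicate 1 and 35.6 TPM in replicate 2.

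Notch1 (ENSMUSG00000026923.11, minus strand of chr2:26457903-26516663 in GRCm38), a receptor needed for the development of blood vessels and T cells, had 37.97 TPM in replicate 1 and 35.6 TPM in replicate 2, a mean of 36.8 ± 1.65 TPM (SD, n = 2). Its estimated counts were 11850 and 13200, a scaled ratio of 0.674 (95% counting interval 0.658 to 0.691), so that the scaled counts put replicate 1 below replicate 2 while TPM puts it above. The direction for Notch1 therefore depended on the scale.

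Notch3 (ENSMUSG00000038146.7, minus strand of chr17:32120820-32166852), the receptor of vascular smooth muscle and pericytes, had 38.9 TPM in replicate 1 and 46.2 TPM in replicate 2, a mean of 42.6 ± 5.13 TPM. The scaled ratio was 0.539 (0.526 to 0.552), in the direction that TPM gives, and short of the 2-fold call.

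Notch2 (ENSMUSG00000027878.10, plus strand of chr3:98013527-98150361), a broadly expressed receptor, had 41.8 TPM in replicate 1 and 18.0 TPM in replicate 2, a mean of 29.9 ± 16.8 TPM. It was the one gene of the 10 with a ratio above 1 under TMM, at 1.49 (1.45 to 1.53), and Jag1 and Heyl joined it under total count or spike-in scaling.

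Notch4 (ENSMUSG00000015468.10, plus strand of chr17:34564268-34588503), the receptor best known from endothelium, had 18.9 TPM in replicate 1 and 50.8 TPM in replicate 2, a mean of 34.8 ± 22.5 TPM. The authors' deposited TPM intervals, whose level the sources used here leave unstated, were 17.2 to 24.8 and 47.7 to 57.1. Its 2852 and 8237 estimated counts gave the lowest ratio of the 10 genes, 0.260 (0.249 to 0.271).

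Notch4 was quantified as 12 transcripts, and the protein-coding Notch4-201 held 59.9% of the gene's TPM in replicate 1 and 54.3% in replicate 2. Of the estimated counts it held 95.5% and 94.1%. The gap between the shares of TPM and of counts lies in short non-coding transcripts, to which few counts give a high level per length. The second was Notch4-212, a non-coding transcript of 451 bases with 37.4 counts in replicate 1 and 166 in replicate 2, which came to 22.2% and 31.9% of the TPM. All of its bases lie in exons 18 to 21 of Notch4-201, without the 113 bases of exon 20 (chr17:34581379-34581491), a length that is not a multiple of 3. The junction is printed from GRCm38, plus strand, because it is what sets this transcript apart: in Notch4-212 the capitals mark the exon after the skipped one, and in Notch4-201 the skipped exon.

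Notch4-212: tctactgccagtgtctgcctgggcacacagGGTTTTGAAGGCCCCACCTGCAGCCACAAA
Notch4-201: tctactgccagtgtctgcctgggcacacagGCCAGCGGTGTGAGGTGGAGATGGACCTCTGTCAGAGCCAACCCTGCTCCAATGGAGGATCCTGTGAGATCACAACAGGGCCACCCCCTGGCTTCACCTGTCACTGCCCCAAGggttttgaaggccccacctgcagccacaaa

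Read in the frame of Notch4-201, Notch4-212 meets a TGA stop that begins at the 6th base after the junction.

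Within a library, ratios of estimated counts between receptors do not depend on how the libraries are scaled to each other. Notch4 had 0.176 counts per Notch2 count in replicate 1 and 1.01 in replicate 2, and Notch3 had 0.709 and 1.95. Of the summed receptor TPM, 138 in replicate 1 and 151 in replicate 2, Notch4 was 13.8% and 33.7% while Notch2 was 30.4% and 11.9%. Notch1 was 27.6% and 23.7%, and Notch3 was 28.3% and 30.7%. Notch4 was thus the least abundant receptor by TPM in replicate 1 and the most abundant in replicate 2, on the scale of all annotated transcripts. Over protein-coding transcripts alone it was also the least abundant in replicate 1, while in replicate 2 its 27.5 TPM lay below those of Notch3 and Notch1.

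Dll4 (ENSMUSG00000027314.6, plus strand of chr2:119325784-119335962), the ligand of arterial and sprouting endothelium, was the most abundant ligand in both libraries over all annotated transcripts. Over protein-coding transcripts alone its 16.8 TPM in replicate 1 lay below the 18.1 TPM of Jag2. It had 23.8 TPM in replicate 1 and 45.0 TPM in replicate 2, a mean of 34.4 ± 14.9 TPM. Estimated counts were 2353 and 5794, a scaled ratio of 0.305 (0.291 to 0.320). Dll4 made up 37.7% of the summed ligand TPM in replicate 1 and 49.4% in replicate 2.

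Dll1 (ENSMUSG00000014773.9, minus strand of chr17:15367354-15376872), a Delta ligand known from somite formation and from arterial endothelium, had 8.04 TPM in replicate 1 and 15.7 TPM in replicate 2, a mean of 11.8 ± 5.38 TPM. Its scaled ratio was 0.419 (0.383 to 0.457), from 792 and 1420 counts.

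Jag2 (ENSMUSG00000002799.5, minus strand of chr12:112907819-112929776) had 18.1 TPM in replicate 1 and 20.4 TPM in replicate 2, with a scaled ratio of 0.569 (0.541 to 0.599). Jag1 (ENSMUSG00000027276.7, minus strand of chr2:137081456-137116644), the ligand mutated in Alagille syndrome in humans, had 13.3 TPM in replicate 1 and 10.1 TPM in replicate 2. The Jag1 ratio was 0.853 (0.804 to 0.904) under TMM, and lay above 1 by TPM and when libraries were scaled by total count or by spike-ins. Between a Delta and a Jagged ligand, Dll4 had 0.959 counts per Jag1 count in replicate 1 and 2.68 in replicate 2, and Dll1 had 0.323 and 0.657.

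Non-coding transcripts with intron sequence held part of the TPM of both Delta ligands. Dll4-202, of 692 bases, had 127 counts in replicate 1 and 188 in replicate 2, 29.7% and 20.04% of the gene's TPM. It covers exons 5 to 9 of Dll4-201 with 105 further bases (chr2:119332038-119332142) from the intron before exon 9. Dll1-206, of 605 bases, was listed at 0 counts in replicate 1 and had 56.9 in replicate 2, which is 0% and 21.3% of the TPM. It was the only transcript of the 10 genes whose share differed by at least 20 points, and its first 75 bases (chr17:15371757-15371831) lie in an intron. Dll1-202, a retained-intron form, was the second transcript of Dll1 by mean share, with 26.8% and 17.6%. The sequences are given because they hold the bases that separate these transcripts from the coding ones, in capitals, on GRCm38 in transcript orientation (Dll4 on the plus strand, Dll1 on the minus strand).

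Dll4-202: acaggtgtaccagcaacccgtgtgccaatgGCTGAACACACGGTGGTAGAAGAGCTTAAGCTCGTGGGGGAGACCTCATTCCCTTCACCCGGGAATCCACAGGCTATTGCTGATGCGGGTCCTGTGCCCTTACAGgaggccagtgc
Dll1-206: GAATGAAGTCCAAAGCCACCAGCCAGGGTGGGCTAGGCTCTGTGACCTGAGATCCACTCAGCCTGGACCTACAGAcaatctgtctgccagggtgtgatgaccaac

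In the frame of Dll4-201, the intron-derived bases of Dll4-202 hold a TGA that begins at their 3rd base.

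Hey1 (ENSMUSG00000040289.4, minus strand of chr3:8663359-8667256) and Heyl (ENSMUSG00000032744.4, plus strand of chr4:123233556-123249875) encode repressors of the basic helix-loop-helix type that Notch signalling induces. Hey1 had 12.4 TPM in replicate 1 and 18.3 TPM in replicate 2, a mean of 15.3 ± 4.21 TPM, and a scaled ratio of 0.415 (0.382 to 0.451). Heyl had 11.3 TPM in replicate 1 and 9.44 TPM in replicate 2, a mean of 10.4 ± 1.34 TPM. The Heyl ratio was 0.754 (0.705 to 0.808) under TMM and above 1 by TPM and under total count and spike-in scaling. Within a library, Hey1 had 0.519 counts per Heyl count in replicate 1 and 0.942 in replicate 2, so the 2 targets differed between the libraries whatever the scaling, by a ratio of 0.551 (0.495 to 0.613).

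By the 2-fold call, 4 of the 10 genes were higher in replicate 2, namely Notch4, Dll4, Dll1 and Hey1, beside 10.6% of the 13404 genes that averaged at least 100 scaled counts. None of the 10 was higher in replicate 1, beside 12.5%. Genes apart in either direction were 23.1% of all. The median log2 ratio was -0.85 over the 10 Notch genes and -0.01 over the 17167 genes that averaged at least 10 scaled counts. Scaled by total count or by spike-ins, every log2 ratio shifts up by 0.51 or 0.46 and only Notch4 and Dll4 stay called, while total count also calls Notch2 higher in replicate 1. Then 4.40% or 4.88% of all genes are higher in replicate 2, and 22.3% or 20.9% in replicate 1. By TPM, Notch4 was 2.68-fold and Dll4 1.89-fold higher in replicate 2, and Notch2 was 2.32-fold higher in replicate 1.

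**Figure D2:**
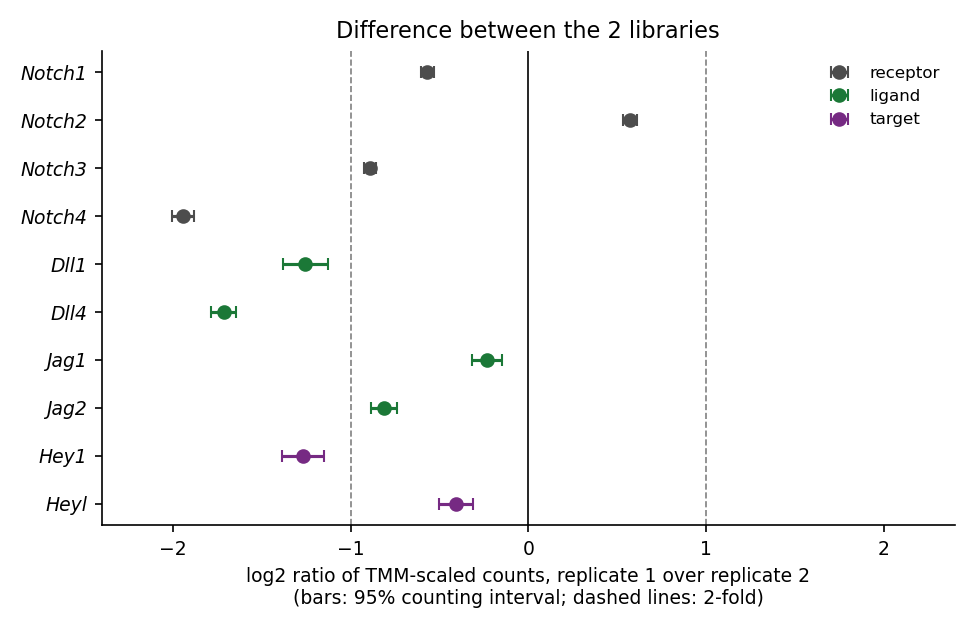
Scaled ratio of replicate 1 over replicate 2 for each Notch gene on a log2 axis, with its 95% counting interval and dashed lines at 2-fold. Notch4, Dll4, Hey1 and Dll1 have whole intervals below -1, and Notch2 alone lies above 0 under TMM, at 0.57 (under total count or spike-in scaling Jag1 and Heyl do too).

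**Figure D3:**
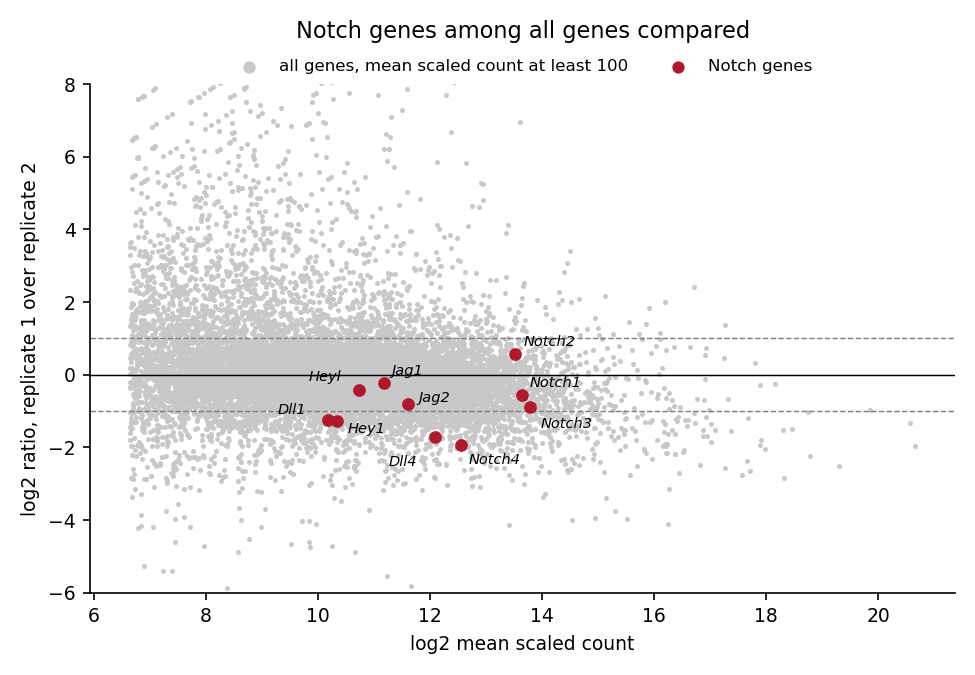
Log2 ratio of replicate 1 over replicate 2 against log2 mean scaled count for all genes averaging at least 100 scaled counts (grey) and the 10 Notch genes (red), with dashed lines at 2-fold. 65 genes lie outside the axis, and 9 of the 10 Notch genes lie below 0 (7 under total count or spike-in scaling).

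For the 7 genes with at least 2 annotated transcripts, the leading transcript was the same in both libraries. It differed in 14.8% of the 9637 genes compared, a share at which 7 genes are too few to stand apart. Notch2, Notch3 and Jag2 have 1 transcript in the annotation used. The second transcripts of Notch1, Jag1 and Heyl held between 4.86% and 13.0% of their gene's TPM. Hey1-203 held 4.82% in replicate 1 and 12.5% in replicate 2. Counted over protein-coding transcripts alone, Notch4 was at 11.4 TPM in replicate 1 and 27.5 TPM in replicate 2, a mean of 19.4 ± 11.4 TPM, below Dll4 at 26.4 ± 13.6 TPM and Notch2. Dll1 came to 5.88 TPM and 8.55 TPM on that scale. The calls of 4 and 0 genes were the same from coding counts.

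**Figure D4:**
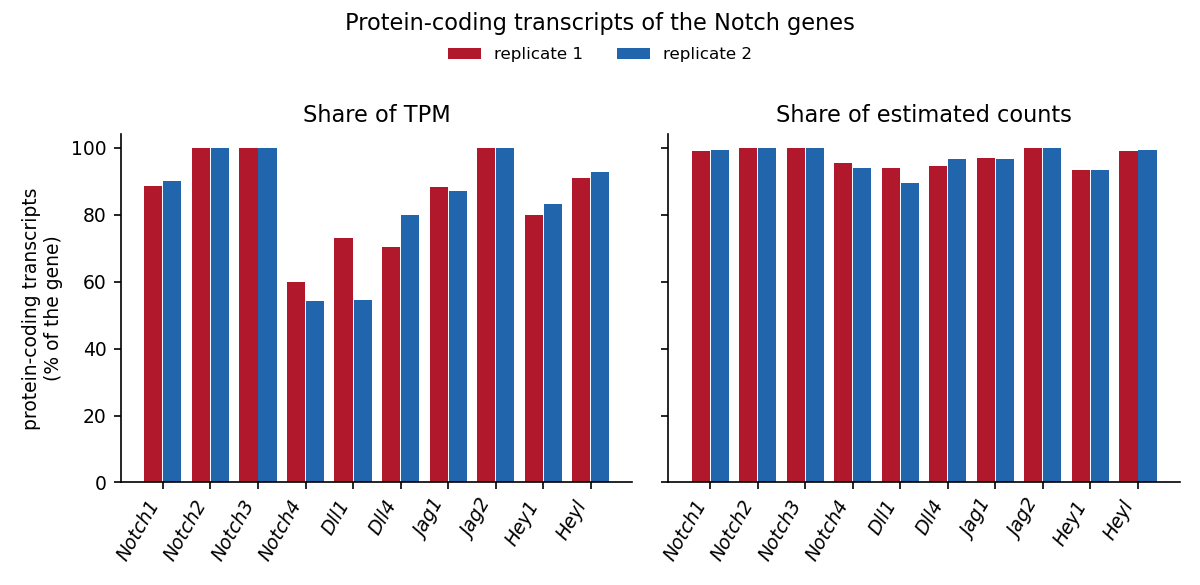
Share of each gene's TPM (left) and of its estimated counts (right), in percent, held by protein-coding transcripts, with bars for replicate 1 and replicate 2. Notch4, Dll1 and Dll4 have the lowest shares of TPM, from 54.3% to 80.0%, and at least 89.4% of the counts.

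Estimated counts of all 10 genes were whole to within 0.005 in both libraries, so no fractional sharing of reads with other genes was seen. Overlapping genes with a value had few counts. The most was 0610009E02Rik, on the strand opposite Notch1, with 63 in replicate 1 and 62 in replicate 2. A930024N18Rik opposite Dll1 had 28 in each, and Gm14207 opposite Dll4 had 14 and 22. Gm42819 and Gm42820, which lie within Notch2 on its strand, were not analysed here. The sources used here do not say whether the counting used strand, so reads from opposite strands cannot be told apart.

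Promoter windows of RefSeq, from 250 bases before to 50 after the start on GRCm38.p6, were found for the 4 receptors and 4 ligands (9 windows), and not for Hey1 and Heyl. They were searched on both strands for the RBPJ motif as TGGGAA and as the longer GTGGGAA, which contains it, and for the E box CACGTG bound by Hes and Hey proteins. None of these 9 receptor and ligand windows held TGGGAA or CACGTG. Of all 32851 windows, 25.6% and 7.15% did, and 6.38% held GTGGGAA. At these shares 9 windows are too few for the absence to set the receptors and ligands apart. Among 5 other target genes with a window (none was found for Hes1), Nrarp held CACGTG, while Hes5, Hey2 and Hes7 held GTGGGAA. The Hes5 and Hey2 windows each held it in 2 places, as 0.256% of windows did, and are printed as windows that hold the motif, with the sites in capitals (TTCCCAC is the opposite strand). The sites start 226 and 83 bases before the start in Hes5 (chr4:154960673-154960932, plus strand), and 207 and 4 bases before it in Hey2 (chr10:30842774-30843033, minus strand).

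Hes5: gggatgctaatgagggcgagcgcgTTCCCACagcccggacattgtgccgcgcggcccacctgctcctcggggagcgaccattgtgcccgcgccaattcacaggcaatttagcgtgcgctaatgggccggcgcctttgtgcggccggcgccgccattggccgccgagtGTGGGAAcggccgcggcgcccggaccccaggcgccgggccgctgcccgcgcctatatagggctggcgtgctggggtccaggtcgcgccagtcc
Hey2: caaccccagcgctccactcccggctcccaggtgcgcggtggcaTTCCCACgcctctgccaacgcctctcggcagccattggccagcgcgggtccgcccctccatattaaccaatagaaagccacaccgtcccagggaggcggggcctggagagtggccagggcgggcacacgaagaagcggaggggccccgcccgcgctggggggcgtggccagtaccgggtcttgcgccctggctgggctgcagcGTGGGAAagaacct

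Hes5 itself had 0.050 TPM in replicate 1 and 0.15 TPM in replicate 2, and Hey2 had 6.68 TPM and 2.42 TPM. A match is a string of letters and not a measured binding site.

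Of 52 pathway genes outside the 10, 46 averaged at least 100 scaled counts. More than 2-fold apart were 3 higher in replicate 1 and 4 higher in replicate 2, beside 12.5% and 10.6% of all genes, and their median log2 ratio was -0.00, beside -0.01 over all genes. The balance turned with the scaling: 7 were higher in replicate 1 and 2 in replicate 2 under spike-in scaling, beside 20.9% and 4.88% of all genes, and 8 and 1 under total count, beside 22.3% and 4.40%. Neurl1a, Maml3 and Dtx1 are named because they were called, after their values were seen. Of these calls, Mfng, Neurl1a, Maml3 and Dtx1 also stood under total count and spike-in scaling, Egfl7 under spike-in scaling only, and Dtx2 and Nrarp under neither. Numbl, Ep300, Maml1 and Hey2 were called higher in replicate 1 under both of these scalings, and Dtx3 under total count.

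Among 5 atypical or further ligands, Egfl7, a secreted endothelial protein that binds Notch, was the only one with enough counts for a call. It had 370.3 TPM in replicate 1 and 656 TPM in replicate 2, a ratio of 0.354 (0.346 to 0.363). Dlk1, Dlk2 and Dner were at 1.98 TPM or less in either library. The Delta gene Dll3 had 0.30 TPM in replicate 1 and 0.03 TPM in replicate 2.

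None of the 10 genes for receptor cleavage was called, and their median log2 ratio of -0.24 turns positive under total count or spike-in scaling. They include the gamma-secretase subunits Aph1a (207 TPM in replicate 1 and 144 TPM in replicate 2), Psenen (121 and 127 TPM), Ncstn (112 and 83.7 TPM) and Psen2 (87.2 and 106 TPM). These 4 genes had a higher TPM than any receptor in both libraries.

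Of the 5 genes for receptor glycosylation 1 was called. Mfng, a Fringe glycosyltransferase that modifies the receptors' EGF-like repeats, had 71.6 TPM in replicate 1 and 191 TPM in replicate 2, a ratio of 0.240 (0.231 to 0.248). The related Lfng had 64.6 TPM and 54.0 TPM, Rfng had 62.1 TPM and 42.0 TPM, and the fucosyltransferase gene Pofut1 had 42.1 TPM and 37.0 TPM. The 3 Fringe genes therefore did not share 1 ratio, and only the Mfng call was more than 2-fold.

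Among 6 genes for ligand endocytosis, which ligands need in order to signal, Neurl1a was higher in replicate 1 (7.02 TPM against 0.65 TPM in replicate 2, ratio 7.04) and the rest were not called. Epn1 had 121 TPM in replicate 1 and 100.2 TPM in replicate 2, and Mib2, a ubiquitin ligase, had 90.4 TPM and 39.5 TPM. Epn2 had 34.3 TPM and 32.8 TPM, and Neurl1b had 25.2 TPM and 13.8 TPM.

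In the nuclear complex, 1 of 11 genes was called under TMM, the coactivator Maml3 with 3.94 TPM in replicate 1 and 1.09 TPM in replicate 2. Rbpj had 26.1 TPM in replicate 1 and 12.0 TPM in replicate 2, a ratio of 1.40 (1.33 to 1.46). The deacetylase gene Hdac1 had 73.6 TPM and 54.7 TPM, and the acetyltransferase gene Ep300 had 28.5 TPM and 9.98 TPM. Under spike-in and total count scaling 3 of the 11, Ep300, Maml1 and Maml3, were called higher in replicate 1.

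Of 10 modulators, Dtx1, a Deltex gene, was higher in replicate 1, with 23.7 TPM against 0.98 TPM in replicate 2 (ratio 13.2, 10.98 to 16.1), and Dtx2 and Nrarp were higher in replicate 2. Dtx2 had 36.0 TPM in replicate 1 and 49.0 TPM in replicate 2. Dtx3 was the most abundant, with 284 TPM and 127 TPM. Numbl had 62.9 TPM and 22.1 TPM, and the Notch inhibitor Numb had 45.2 TPM and 38.9 TPM. The Deltex genes thus lay on both sides of 1.

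Of 6 other targets, 4 had enough counts and 1, Nrarp, was called under TMM. Under spike-in and total count scaling Nrarp was not called and Hey2 was called higher in replicate 1. Nrarp, a target that feeds back on Notch signalling, had 13.7 TPM in replicate 1 and 23.0 TPM in replicate 2, a ratio of 0.382 (0.356 to 0.409). Hes1, a widely used Notch target that other signals also induce, had 47.4 TPM and 20.2 TPM, a ratio of 1.36 (1.24 to 1.497), and Hes6 had 35.4 TPM and 18.0 TPM. Targets of the pathway therefore did not move as 1 group between the libraries.

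Markers of the vascular cells were compared in the same way. Of 10 endothelial markers, 7 were more than 2-fold higher in replicate 2 and none in replicate 1. Scaled by spike-ins 3 were called, and by total count 1, Cldn5. The median log2 ratio was -1.40 under TMM and -0.88 under total count, and the summed level was 555 TPM in replicate 1 and 1007 TPM in replicate 2. The most abundant were the cadherin gene Cdh5 (110 TPM in replicate 1 and 192 TPM in replicate 2), the tight junction gene Cldn5 (71.0 and 208 TPM), Esam (83.6 and 150.1 TPM) and Pecam1 (77.0 and 133 TPM). Of 8 genes listed as arterial markers only Gja5, named for its call, was higher in replicate 2. The 4 most abundant of this list, Sox17 (201 and 66.4 TPM), Sox18 (97.5 and 123 TPM), Efnb2 (74.7 and 37.0 TPM) and Nrp1 (43.0 and 54.1 TPM), were not called under TMM. Sox17 and Efnb2 were called higher in replicate 1 under total count and spike-in scaling. Whether their RNA came from arteries was not tested.

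Of 12 mural markers, 6 were higher in replicate 1 and Mcam, which endothelium also expresses, was higher in replicate 2, a call not made under total count or spike-in scaling. Their sums were 5829 TPM in replicate 1 and 1112 TPM in replicate 2, with the smooth muscle genes Acta2 (3567 and 428 TPM), Tagln (944 and 142 TPM) and Cnn1 (282 and 12.0 TPM) among the most abundant. Notch3, the mural receptor, had a ratio below 1 under TMM, total count and spike-in scaling. The 5 mural markers not called under TMM, named after their values were seen, lay on both sides of 1. They were Rgs5 at 0.615, Cspg4 at 0.842, Abcc9 at 1.15, Pdgfrb at 1.20 and Kcnj8 at 1.24. The 6 called higher in replicate 1 ran from 4.04 for Smtn to 15.0 for Cnn1, and Mcam was at 0.386. Over all 12 mural markers the log2 ratios ran from -1.37 to 3.91 under TMM, with a median of 1.16. The 5 uncalled genes therefore show only part of that spread. Of 8 fibroblast markers, 2 were higher in replicate 1 (Col1a1 and Pdgfra) and 1 in replicate 2 (Pi16) under TMM. Under total count and spike-in scaling Col1a1, Lum and Pdgfra were called higher in replicate 1, and none in replicate 2. Pdgfra, Pi16 and Lum are named for their calls, and the most abundant of the list were Dcn, Col1a1, Ly6a and Dpt. None of 8 macrophage markers was called, led by Lyz2, C1qb, C1qc and C1qa. Of 8 cell division genes, 7 were tested and all 7 were higher in replicate 1, led by Cdk1, Aurkb, Plk1 and Ccnb1. No marker was listed at 0 in either library, but some epithelial markers had few counts in replicate 2. Esrp1 had 2 there, Wfdc2 4, Epcam 7 and Elf3 9, and only 2 of the 10 epithelial markers reached 1 TPM in both libraries.

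**Figure D5:**
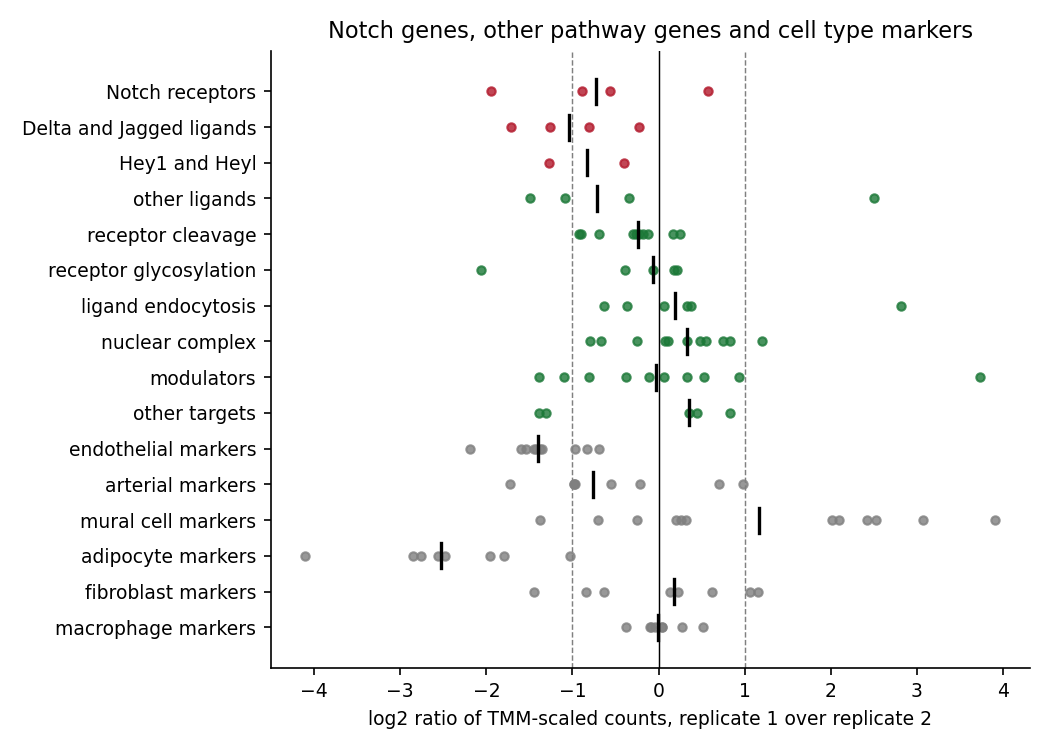
Log2 ratio of replicate 1 over replicate 2 for the genes of the lists that averaged at least 10 scaled counts, with a bar at the list's median. Epithelial markers and cell division genes, with medians of 7.60 and 2.49, are not drawn. Medians of the lists drawn run from -2.52 for adipocyte markers to 1.16 for mural markers, with the receptors at -0.73, the ligands at -1.03 and the endothelial markers at -1.40.

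Set against the summed counts of the 10 endothelial markers, 56824 in replicate 1 and 111862 in replicate 2, the 4 called genes had ratios between 0.682 and 1.10. Per 1000 endothelial marker counts, Dll1 had 13.9 in replicate 1 and 12.7 in replicate 2 and Hey1 had 15.5 and 14.2. Dll4 had 41.4 and 51.8, and Notch4 had 50.2 and 73.6, with an interval of the ratio from 0.652 to 0.712. The other 6 genes were all higher in replicate 1 on this scale, from Notch3 with 202 and 143 to Notch2 with 285 and 73.1. Jag1 had 43.2 and 19.3, and Heyl had 29.8 and 15.1. Dividing by the endothelial sums changes all 10 ratios by the same factor, so it keeps their order and is no separate support for the calls. The part that endothelial, epithelial, mural or adipocyte RNA has in the ratios of the Notch genes was not tested.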

How the data were processed

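Gene and transcript tables of 2 libraries were used as deposited. The authors' tables hold expected counts, estimated from transcriptome alignments per the deposited notes, TPM and FPKM for each gene, and IsoPct, the percent of a gene's TPM in each transcript. They also hold lower and upper bounds of TPM, treated here as a signal per the file headers. Per the notes deposited beside the tables, they derive from transcriptome alignments to mm10 with GENCODE M4. The quantifier, aligner and strand setting are not given in the sources used here. Tables on mm9, without gene names, were not used.

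Expected counts were rounded and scaled with edgeR 4.0.16 (TMM on all annotated genes without spike-ins, R 4.3.3). DESeq2 1.42.0 size factors were an alternative. Intervals of the ratios are exact 95% binomial (Clopper-Pearson) ones for how the counts split (scipy 1.17.1). Intervals of ratios of ratios used the Poisson error of the counts on the log scale. The calling step was tested on simulated data. TPM was used without a pseudocount except in 2 alternatives (0.1 and 1). FPKM served only as an alternative.

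Members, gene lists and tests were chosen with earlier results of these data known. Genes named were the 10, the 4 of highest mean TPM in each list, the 2 leading transcripts of each gene and any transcript whose IsoPct differed by at least 20 points. Within-library ratios, sequences shown and the restriction to protein-coding transcripts were chosen after values were seen. Transcript structures and sequences are from GENCODE M21 (GRCm38), in which all 43 transcripts matched by ID and 40 had the same length. Proteins were not analysed here. Of the 4 most abundant genes in the nuclear complex list, 1 is not reported here.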

Additional observations from a re-analysis of the deposited data

How the results depend on the processing

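All 10 genes stayed at or above the level threshold in every alternative run (thresholds of 0.5 and 5 TPM, FPKM, posterior mean TPM, coding transcripts, and each library alone, range 10 to 10). DESeq2 size factors, TMM on genes with at least 10 counts, other count minimums and coding counts kept 4 genes higher in replicate 2 and 0 in replicate 1. With total count or spike-in scaling, 2 were higher in replicate 2 (Notch4 and Dll4), and total count called 1, Notch2, higher in replicate 1 (log2 ratio 1.09), as were 22.3% of all genes. Dll1 then had -0.80 (spike-in) and -0.74 (total count), and Hey1 -0.81 and -0.75. The median log2 ratio was -0.40 with spike-ins, -0.34 with total count, -0.21 for log2 of TPM + 0.1 and -0.20 for log2 of TPM + 1. Spike-in and total count scaling shift every ratio alike, which moves their 2 medians. TPM does not shift all ratios alike, as it divides by a length estimated in each library. That length was 2620 bases in replicate 1 and 2054 in replicate 2 for Dll1, and 2624 and 2916 for Dll4. How much of the difference for TPM lies in these lengths was not tested. On log2 of TPM + 0.1, Notch4 was at -1.42 and Notch2 at 1.21, and no other of the 10 genes was 2-fold apart. Dll1 was at -0.95, Dll4 at -0.91 and Hey1 at -0.56 on that scale. The leading transcript was unchanged by posterior mean TPM. No paired analysis was possible because there is 1 group of 2 libraries. The counting intervals do not cover the spread between samples, and low transcripts such as Dll1-206 rest on few counts.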
